A study of Rattus norvegicus with 12 samples.

Results

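The genes Angpt1, Angpt2, Vegfa, Vegfc, Flt1, Nrp1 and Nrp2 encode ligands and receptors through which cells signal to blood vessels, lymphatic vessels and growing axons. They were followed in astrocytes grown from the rat optic nerve head, the place where retinal ganglion cell axons leave the eye. The genes were taken by symbol from the annotation of the array platform: 7 genes of the 14217 with a symbol of their own, measured by 12 of the 31099 probe sets. A probe set is a group of short probes against the same transcript. Where a gene had several, the brightest over all arrays stands for the gene and the others are given beside it.

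Primary cultures were either treated with EGF (epidermal growth factor), a mitogen that binds the EGF receptor, or kept as control sister cultures. EGF was given for 4 h in the first experiment and for 12 h in the second, and each experiment had its own controls. The 4 groups were therefore control 4 h, EGF 4 h, control 12 h and EGF 12 h, with 3 arrays in each and 12 in all. The sources used here state neither the rat strain and age nor the EGF dose, and name no transgene or other agent. Total RNA was measured on Affymetrix 1-colour arrays, and signals are the authors' MAS5 values on a linear scale. Nothing in the sources says whether the replicates were separate cultures, so the p-values measure the spread between these arrays, which may be technical.

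The vascular endothelial growth factors (VEGFs) are secreted dimers. Vegfa binds the tyrosine kinase receptors Flt1 and Kdr and drives growth and leakiness of blood vessels, and Vegfc binds mainly Flt4 and drives growth of lymphatic vessels. Flt1 binds Vegfa tightly but signals weakly, and its soluble form acts as a decoy. Neuropilins, Nrp1 and Nrp2, bind VEGFs and class 3 semaphorins and work as co-receptors with VEGF receptors and with plexins. The angiopoietins bind the receptor Tie2, encoded by Tek: Angpt1 activates it and quietens vessels, and Angpt2 opposes Angpt1 in many settings. Astrocytes of the developing retina are a well known source of Vegfa for the vessels that follow them.

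The arrays fell into sets that the groups do not explain. The EGF and control arrays of replicate 3 at 4 h had mean hybridisation control signals of 17378 and 19737, against 36.1 to 87.1 on the others. The ratio of 3' to 5' actin signal, which rises as labelled RNA is cut short or degraded, was 1.20 to 1.61 at 4 h, 11.1 to 21.7 on the 3 control arrays and EGF replicates 1 and 2 at 12 h, and 1.24 on EGF replicate 3 at 12 h. Experiment, time and RNA quality therefore cannot be told apart when 12 h is set against 4 h, whereas EGF and control share a set at 4 h and, but for EGF replicate 3, at 12 h. Within a group, r between arrays was 0.899 to 0.979, and no columns were identical. The astrocyte label was checked against marker genes: Gja1 (51744 to 85280 over the 12 arrays), Vim and Glul were bright, whereas Gfap (36.2 to 347.4), Aqp4 (14.9 to 108.2) and Pax2 (at most 237.5) lay below the limit for testing on average. The fibroblast collagens Col1a1 and Col3a1 were bright too, so the cultures are called astrocytes by their label.

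After 4 h of EGF, Flt1 rose 10.2-fold, while Angpt2, Nrp1 and Nrp2 fell. After 12 h, Angpt2 had fallen to signals below the limit for testing, Nrp2 was 3.13-fold below control, Flt1 and Vegfc were above control, and Nrp1 was above control as well, the opposite of its change at 4 h. Vegfa did not pass the test at either time. Angpt1 had a mean signal below the limit for testing. Of the 6 genes tested at 4 h, 1 was higher, 3 were lower and 2 passed in neither direction, where 12.8% of all 10261 tested genes were called higher and 19.6% lower. At 12 h, 3 were higher, 2 were lower and 1 passed in neither direction, against 16.5% and 24.2% of all genes. The median log2 fold change of the 6 genes was -0.46 at 4 h and 0.26 at 12 h, and that of all tested genes was -0.17 and -0.09. A call means an adjusted p under 0.05 in limma's moderated test, adjusted by Benjamini-Hochberg over 18625 probe sets. Log2 fold changes are on the scale of log2(signal + 24.4), with the standard error (SE) of the fit, and the offset makes changes of dim probe sets look smaller.

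**Figure D1:**
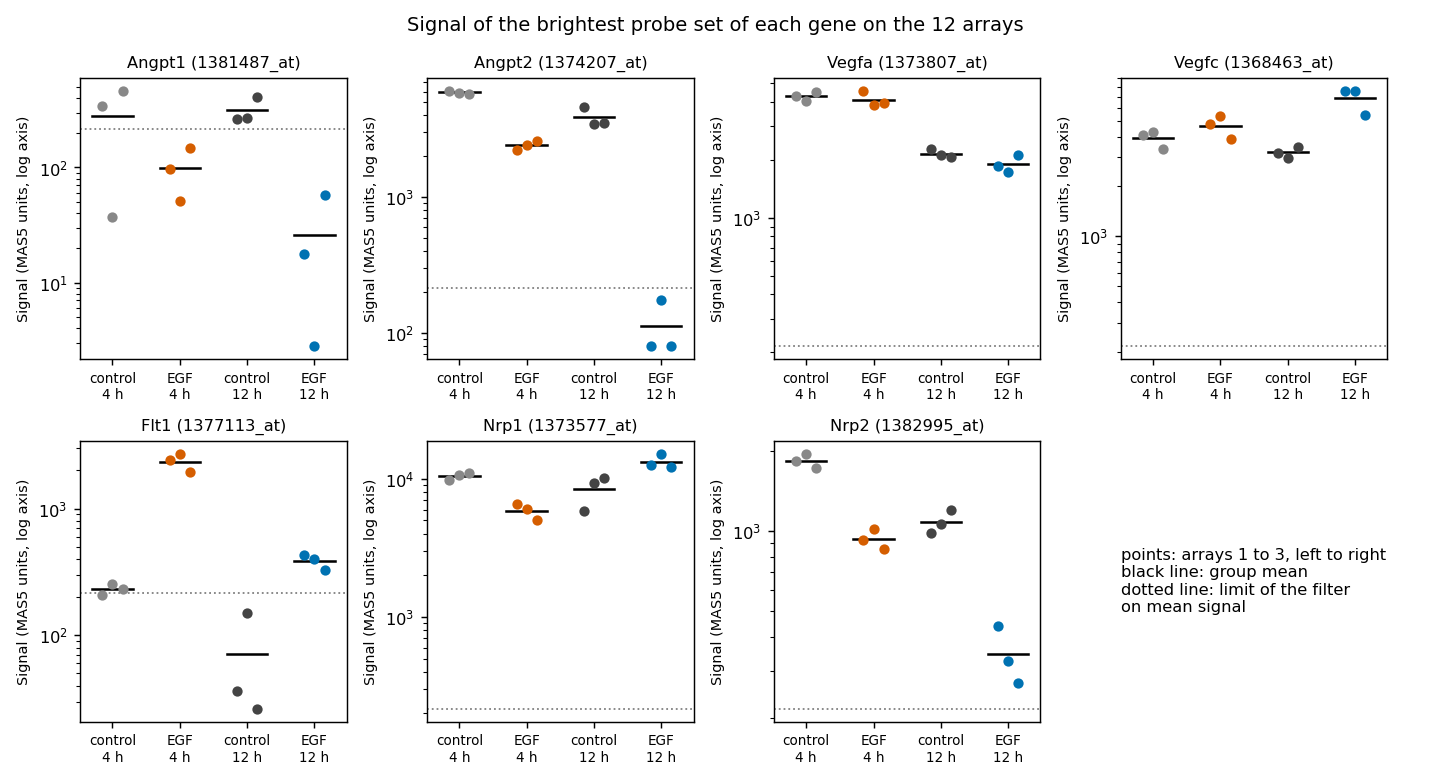
MAS5 signal of the leading probe set of each of the 7 genes on each of the 12 arrays, by group, with the mean of each group as a line. Angpt2 lay between 79.8 and 175.9 on the EGF arrays at 12 h and between 3458.8 and 4618.6 on their controls, and Flt1 lay between 1930.3 and 2698.8 on the EGF arrays at 4 h, above every other array.

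The promoters of 4 genes are shown because Flt1, Vegfc, Nrp1 and Nrp2 differed in the direction or time at which they passed the test. Each sequence holds the 250 bases before the annotated start, read 5′ to 3′ along the gene, from the RefSeq table with build GRCr8, which held 5 of the 7 genes. Capitals mark matches, on either strand, to the motifs spelled out after the sequences. Flt1 lies at chr12:12333180-12333429 on the plus strand, Vegfc at chr16:44560888-44561137 on the minus strand, Nrp1 at chr19:73256307-73256556 on the plus strand and Nrp2 at chr9:71617004-71617253 on the plus strand.
Flt1: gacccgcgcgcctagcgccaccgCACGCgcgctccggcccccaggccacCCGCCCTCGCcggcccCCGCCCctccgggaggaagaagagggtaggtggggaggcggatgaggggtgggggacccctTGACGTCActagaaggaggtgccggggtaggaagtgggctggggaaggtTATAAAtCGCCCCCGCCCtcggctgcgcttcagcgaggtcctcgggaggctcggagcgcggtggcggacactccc
Vegfc: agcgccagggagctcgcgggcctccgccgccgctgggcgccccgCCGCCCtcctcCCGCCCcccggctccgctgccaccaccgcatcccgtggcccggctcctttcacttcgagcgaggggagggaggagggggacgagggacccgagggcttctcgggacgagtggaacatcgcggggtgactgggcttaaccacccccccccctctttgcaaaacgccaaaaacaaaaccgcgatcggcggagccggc
Nrp1: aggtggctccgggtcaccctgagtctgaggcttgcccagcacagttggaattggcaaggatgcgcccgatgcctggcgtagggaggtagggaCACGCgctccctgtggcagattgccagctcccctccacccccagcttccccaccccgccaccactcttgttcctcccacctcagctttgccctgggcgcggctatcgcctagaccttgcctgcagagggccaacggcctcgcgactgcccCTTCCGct
Nrp2: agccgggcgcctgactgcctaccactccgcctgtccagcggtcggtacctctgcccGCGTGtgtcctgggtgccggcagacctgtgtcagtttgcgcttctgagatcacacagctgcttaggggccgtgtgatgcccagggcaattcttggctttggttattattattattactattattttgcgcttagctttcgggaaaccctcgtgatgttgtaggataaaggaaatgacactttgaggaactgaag

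The Flt1 window held the most kinds of motif among these promoters. It had a cAMP response element, TGACGTCA, that began 124 bases before the start, a motif present in 1.59% of the 33469 rat promoters searched. It also had 3 GC boxes, which are written GGGCGG and were found in 30.5% of promoters. Its 2 Egr matches, for GCGNGGGCG, overlap GC boxes, and 4.29% of promoters hold that motif. A hypoxia response core written GCGTG was present too, as in 25.9% of promoters, and so was a TATA motif with the letters TATAAA, as in 12.9%. Vegfc held 2 GC boxes, and Nrp2 held the same hypoxia core. Nrp1 held that core and an ETS motif, CGGAAG, which 13.9% of promoters hold. The AP-1 motif TGANTCA is in 6.34% of promoters, and it matched in no window of these genes. The other hypoxia response core, ACGTG, is in 16.6% and matched in none either. Both searches covered Vegfa, of whose 2 entries the first held 3 GC boxes. The Flt1 and Vegfc windows were 73.2% and 72.4% G and C, against a median of 51.2% over all promoters. A match describes the letters in the window, and binding was not measured.

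Angpt2, the angiopoietin that mostly opposes Tie2 activation, had the largest change of the 6 tested genes at 12 h. Its signal was 6040.3, 5901.7 and 5800.6 on the control arrays at 4 h and 2215.7, 2417.9 and 2605.2 with EGF. At 12 h it was 4618.6, 3458.8 and 3539.0 on the controls and 80.2, 175.9 and 79.8 with EGF. The groups did not overlap, and their order was control 4 h, control 12 h, EGF 4 h and EGF 12 h, from high to low. The mean fell from 5914.2 ± 120.3 to 2412.9 ± 194.8 (SD, n = 3) at 4 h, a 2.45-fold lower signal and a log2 fold change of -1.29 ± 0.23 (SE; limma adjusted p = 8.92e-04). At 12 h it fell from 3872.1 ± 647.7 to 112.0 ± 55.4, where the EGF arrays lie below the mean signal of 215 that the filter asks for. The ratio of these means was 34.6, and 48.4 without EGF replicate 2. With the EGF mean set at the filter's limit it was 18.0, so the size of the fall at 12 h is known less well than its direction. The log2 fold change at 12 h was -4.90 ± 0.23 (limma adjusted p = 4.8e-09). Within the sets of arrays that hold both groups, the log2 difference was -1.36 and -1.15 at 4 h and -4.74 for EGF replicates 1 and 2 at 12 h. The set of EGF replicate 3 at 12 h holds no control, and against the controls of the other set its difference was -5.21. The effect at 12 h minus that at 4 h was -3.61 ± 0.32 on the log2 scale (limma adjusted p = 2.06e-05).

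Angpt1, the ligand that activates Tie2, had a mean of 180.4 over the 12 arrays, below the limit of 215, although 5 of the 6 control arrays lay above it. Its signal was 343.9, 36.9 and 459.8 on the control arrays at 4 h and 97.7, 51.1 and 148.0 with EGF, so that these groups overlapped. The 12 h values were 265.8, 271.2 and 412.7 on the controls and 17.8, 2.8 and 57.2 with EGF. The groups at 12 h did not overlap. With no filter on dim probe sets, the log2 fold change was -0.93 ± 0.69 at 4 h (limma adjusted p = 0.461) and -2.88 ± 0.69 at 12 h (limma adjusted p = 0.00732). The EGF signals at 12 h are too low for a fold to be read from them.

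Tek, which encodes the angiopoietin receptor Tie2, was the gene of the Tie list that was bright enough to test, and it fell at both times. Its signal was 2127.5, 2220.7 and 2708.9 on the control arrays at 4 h and 1214.1, 971.8 and 1314.2 with EGF. The 12 h values were 2769.5, 2185.5 and 2023.7 on the controls and 1220.7, 846.8 and 972.0 with EGF. The EGF arrays lay below the control arrays at each time. In log2 terms it changed by -1.0 ± 0.19 at 4 h (limma adjusted p = 0.00149) and -1.18 ± 0.19 at 12 h (limma adjusted p = 2.9e-04), and the difference between them did not pass (limma adjusted p = 0.708). The orphan receptor Tie1 (10.8 to 181.6), the ligand Angpt4 (105.1 to 296.2) and the phosphatase Ptprb (11.1 to 253.3), which acts on Tie2, were too dim to test.

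Vegfc, the lymphatic VEGF, was bright in every group and rose at 12 h. Its signal was 3198.9, 2983.4 and 3454.9 on the control arrays at 12 h and 7538.6, 7529.8 and 5382.0 with EGF. At 4 h it was 4110.7, 4291.2 and 3355.7 on the controls and 4782.9, 5299.0 and 3864.0 with EGF. The EGF arrays at 12 h lay above all other arrays, whereas the 4 h groups overlapped, and so did the control groups of 4 h and 12 h. The mean at 12 h was 3212.4 ± 236.0 on the controls and 6816.8 ± 1242.6 with EGF (SD, n = 3), a 2.12-fold difference and a log2 fold change of 1.06 ± 0.17 (limma adjusted p = 2.64e-04). At 4 h the log2 fold change was 0.24 ± 0.17 (limma adjusted p = 0.322), with a 95% interval of -0.12 to 0.60. The effect at 12 h exceeded that at 4 h by 0.82 ± 0.24 (limma adjusted p = 0.0392), a call that was lost in 13 of 22 alternatives, where the adjusted p reached 0.102. With array set as a block, the rise at 4 h passed (0.24, limma adjusted p = 0.0414).

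Vegfa, the main ligand of blood vessel growth, did not pass the test with EGF but differed between the experiments. Probe set 1373807_at gave 4309.2, 4051.0 and 4477.7 on the control arrays at 4 h and 4540.8, 3848.0 and 3930.4 with EGF. The later arrays gave 2268.4, 2111.4 and 2078.5 on the controls and 1863.7, 1731.2 and 2123.4 with EGF. EGF and control arrays overlapped at each time, and all 4 h arrays lay above all 12 h arrays. The log2 fold change with EGF was -0.06 ± 0.13 at 4 h (limma adjusted p = 0.767), with a 95% interval of -0.34 to 0.21. The value at 12 h was -0.18 ± 0.13 (limma adjusted p = 0.304), with a 95% interval of -0.45 to 0.10. A change of the size seen in Vegfc lies outside both intervals. The other probe set, 1370081_a_at, gave 1208.2 to 1935.8 on the controls and 1880.7 to 2684.0 with EGF at 4 h, and 50.3 to 783.0 over the 6 arrays at 12 h. It did not pass at either time (0.45 ± 0.63 and 0.46 ± 0.63, limma adjusted p = 0.643 and 0.601). Its intervals were wide, -0.90 to 1.81 at 4 h and -0.90 to 1.82 at 12 h, and hold a change of the size seen in Vegfc. At 12 h its log2 difference was -0.23 for EGF replicates 1 and 2, which share a set with the controls. For EGF replicate 3, which has no control in its set, it was 1.83.

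Of the other VEGF ligands, Pgf, the placental growth factor that binds Flt1, changed in opposite directions at the 2 times. Its signal was 1698.6, 2010.1 and 2294.5 on the control arrays at 4 h and 3858.8, 4218.4 and 4813.1 with EGF. The 12 h signals were 1582.8, 1370.4 and 1425.5 on the controls and 966.8, 802.4 and 525.1 with EGF. EGF and control did not overlap at either time, with EGF above at 4 h and below at 12 h. The log2 fold change was 1.10 ± 0.20 at 4 h (limma adjusted p = 0.00135) and -0.95 ± 0.20 at 12 h (limma adjusted p = 0.00259), and the difference between them was -2.05 ± 0.29 (limma adjusted p = 6.32e-04). Vegfb, another Flt1 ligand, fell at both times, by 0.89 ± 0.24 at 4 h (limma adjusted p = 0.0151) and by 0.98 ± 0.24 at 12 h (limma adjusted p = 0.0064). The fall of Vegfb at 4 h was not called without EGF replicate 3 (limma adjusted p = 0.0539) or without control replicate 2 (limma adjusted p = 0.0741). Vegfd, a relative of Vegfc, did not pass at either time (limma adjusted p = 0.796 and 0.0966). Of these 3 ligands, 1 rose, 1 fell and 1 did neither at 4 h, and 0, 2 and 1 did so at 12 h, where 12.8% of all genes rose and 19.6% fell at 4 h, and 16.5% and 24.2% at 12 h.

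Flt1, the VEGF receptor 1, was the gene of the 6 that rose at 4 h. The leading probe set 1377113_at gave 207.7, 251.8 and 230.8 on the control arrays at 4 h and 2406.7, 2698.8 and 1930.3 with EGF. In the 12 h experiment it gave 36.4, 150.3 and 26.2 on the controls and 428.0, 398.5 and 328.8 with EGF. The groups did not overlap, and their order from high to low was EGF 4 h, EGF 12 h, control 4 h and control 12 h. The mean rose from 230.1 ± 22.1 to 2345.3 ± 387.9 (SD, n = 3) at 4 h, 10.2-fold, with a log2 fold change of 3.21 ± 0.39 (limma adjusted p = 4.47e-05). At 12 h it rose from 71.0 ± 68.9 to 385.1 ± 50.9, a 5.43-fold ratio over dim controls (12.3-fold without control replicate 2), with a log2 fold change of 2.32 ± 0.39 (limma adjusted p = 4.28e-04). With the control mean set at the filter's limit, the ratio at 12 h was 1.79. Across all alternatives the log2 fold change lay between 2.89 and 3.45 at 4 h and between 1.59 (with an offset at the 25th percentile of the signals) and 2.88 (without control replicate 2) at 12 h. The effects at the 2 times did not differ past the threshold (-0.88 ± 0.55, limma adjusted p = 0.336). With that larger offset they did (-1.30, limma adjusted p = 0.0352).

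The other Flt1 probe sets gave less even values. Probe set 1370492_a_at gave 199.0, 231.2 and 301.2 on the controls and 1058.8, 1390.7 and 1688.9 with EGF at 4 h, without overlap. Its log2 fold change at 4 h was 2.38 ± 0.59 (limma adjusted p = 0.00857), a call that was lost with an offset of 1 (limma adjusted p = 0.0504) and without the replicate 3 pair (limma adjusted p = 0.0605). The probe set passed the filter only through the EGF arrays at 4 h, where it was high, so this call is no separate support for the rise. Its mean was 1379.5 there, and 243.8, 49.8 and 106.8 in control 4 h, control 12 h and EGF 12 h. At 12 h its signals were 102.8, 11.2 and 35.5 on the controls and 113.7, 15.9 and 190.8 with EGF, which overlapped. The log2 fold change at 12 h was 0.71 ± 0.59 (limma adjusted p = 0.372), and without EGF replicate 2 it was 1.41 and passed (limma adjusted p = 0.0457). Against the 12 h controls the log2 difference was 0.20 for EGF replicates 1 and 2, which share their set. It was 1.73 for EGF replicate 3, which has no control in its set. Probe set 1369087_at gave 253.5, 384.7 and 205.9 on the controls and 455.4, 293.6 and 742.2 with EGF at 4 h, which overlapped, and passed at neither time (0.72 ± 0.59 and 1.26 ± 0.59, limma adjusted p = 0.407 and 0.114). Without control replicate 1 at 12 h its effect there was 1.85 and passed (limma adjusted p = 0.0306). Against the 12 h controls its log2 difference was 0.81 for EGF replicates 1 and 2 and 2.14 for EGF replicate 3. Probe set 1369087_at, too, passed the filter only through the EGF arrays at 4 h. Which Flt1 transcripts each probe set detects, full length or soluble, is not stated in the sources used here. The partner receptors Kdr (22.8 to 206.3 over the 12 arrays) and Flt4 (24.5 to 205.1), which bind Vegfa and Vegfc, were too dim to test.

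**Figure D2:**
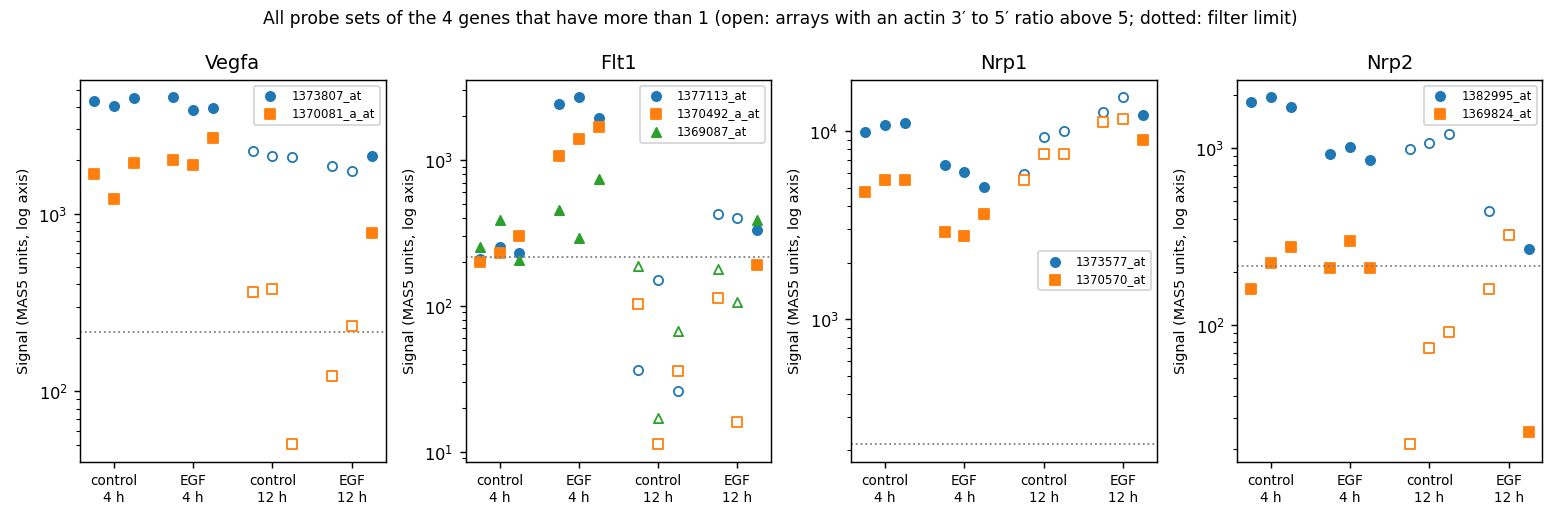
MAS5 signal on a log axis for every probe set of Vegfa, Flt1, Nrp1 and Nrp2 on each array, by group, with open symbols for arrays with an actin 3' to 5' ratio above 5 and a dotted line at the filter's mean signal of 215. The probe sets 1373577_at and 1370570_at of Nrp1 both fell at 4 h and rose at 12 h, whereas those of Flt1 spread widely at 12 h, where most signals lay below the line.

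Nrp1, a co-receptor for Vegfa and for semaphorin 3A, changed in opposite directions at the 2 times on both of its probe sets. Probe set 1373577_at gave 9888.3, 10729.0 and 11060.6 on the control arrays at 4 h and 6576.6, 6032.4 and 5021.2 with EGF. The 12 h arrays gave 5884.4, 9357.1 and 10071.8 on the controls and 12599.0, 15185.2 and 12189.8 with EGF. The EGF arrays lay below the controls at 4 h and above them at 12 h, and the control arrays at 12 h spread most, with replicate 1 lowest. On the log2 scale EGF changed it by -0.85 ± 0.19 at 4 h (limma adjusted p = 0.00389) and 0.69 ± 0.19 at 12 h (limma adjusted p = 0.0103). The difference between the effects was 1.54 ± 0.26 (limma adjusted p = 0.00223). Without the replicate 3 pair the fall at 4 h was -0.71 and was not called (limma adjusted p = 0.0524). Without control replicate 1 at 12 h the rise there was 0.45 (limma adjusted p = 0.0466).

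Probe set 1370570_at of Nrp1 gave 4717.4, 5478.1 and 5490.6 on the controls and 2897.8, 2763.3 and 3644.3 with EGF at 4 h. The second experiment gave 5505.7, 7594.9 and 7586.6 on the controls and 11230.8, 11624.6 and 8973.8 with EGF. No groups overlapped, and the order from high to low was EGF 12 h, control 12 h, control 4 h and EGF 4 h. On that scale EGF changed it by -0.76 ± 0.16 at 4 h (limma adjusted p = 0.00385) and 0.63 ± 0.16 at 12 h (limma adjusted p = 0.00904), and the difference was 1.38 ± 0.23 (limma adjusted p = 0.00206). Without control replicate 1 at 12 h the rise was 0.47 and was not called (limma adjusted p = 0.052). At 12 h the log2 difference was 0.74 for EGF replicates 1 and 2, which share a set with the controls, and 0.39 for EGF replicate 3, which has no control in its set.

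Nrp2, the neuropilin that pairs with Vegfc and with semaphorin 3F, fell at both times. The leading probe set 1382995_at gave 1832.7, 1942.8 and 1713.8 on the control arrays at 4 h and 922.9, 1012.9 and 853.4 with EGF. At 12 h it gave 984.6, 1062.8 and 1199.3 on the controls and 440.6, 325.4 and 269.8 with EGF. EGF and control did not overlap at either time, whereas the EGF arrays at 4 h overlapped the controls at 12 h. The mean fell 1.97-fold at 4 h, from 1829.8 ± 114.5 to 929.7 ± 80.0 (SD, n = 3), and the log2 fold change was -0.96 ± 0.19 (limma adjusted p = 0.00216). It fell 3.13-fold at 12 h, from 1082.2 ± 108.7 to 345.3 ± 87.1, and the log2 fold change was -1.60 ± 0.19 (limma adjusted p = 2.53e-05). The effects did not differ past the threshold (-0.64 ± 0.27, limma adjusted p = 0.149), except without EGF replicate 1 at 12 h (-0.82, limma adjusted p = 0.0405). The other probe set, 1369824_at, was below the filter, with signals of 21.2 to 324.0. Its mean was 220.1 on the controls and 239.7 with EGF at 4 h, and 62.2 and 169.6 at 12 h. With no filter on dim probe sets, its log2 fold change was 0.12 ± 0.62 at 4 h and 0.87 ± 0.62 at 12 h (limma adjusted p = 0.94 and 0.388). The fall of Nrp2 therefore rests on its leading probe set.

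**Figure D3:**
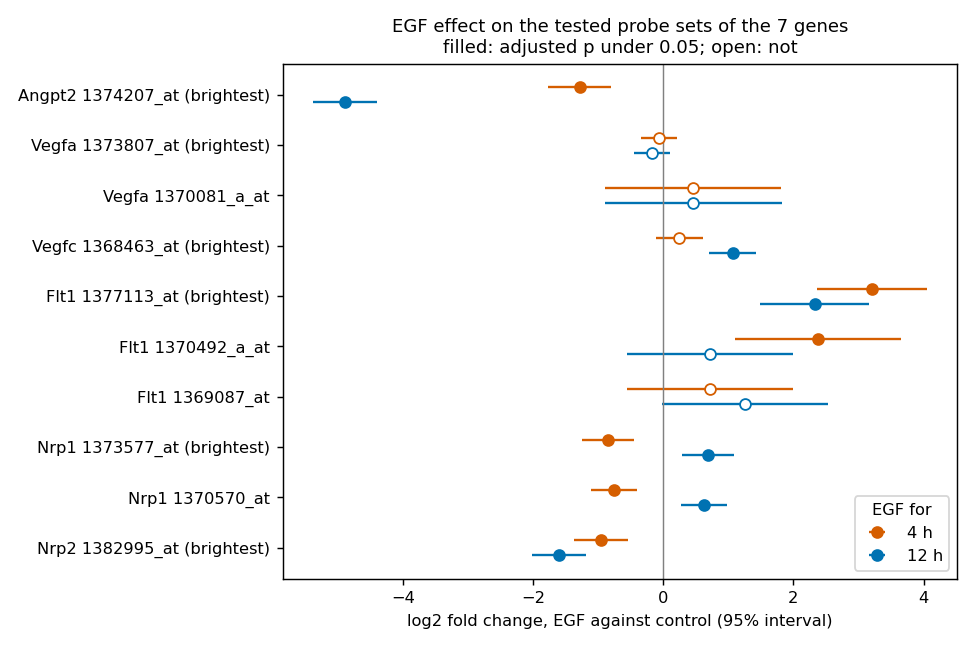
Log2 fold change of EGF over control for each tested probe set at 4 h and 12 h, with 95% intervals of the limma fit, filled where the adjusted p was under 0.05. Nrp1 lies below 0 at 4 h and above 0 at 12 h on both probe sets, and Angpt2 moves from -1.29 to -4.90.

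The difference between the EGF effects was tested for each gene. Of the 6 genes, 2 had a higher effect at 12 h than at 4 h, 1 had a lower one and 3 passed in neither direction, where 6.55% and 7.45% of all genes were called higher and lower. Nrp1 and Vegfc were the higher ones and Angpt2 the lower one. The median of the 6 differences was -0.38 and that of all tested genes 0.04. The 2 experiments used different control arrays, so these effects share none. Time, experiment and RNA quality cannot be told apart in these differences.

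Without EGF, 4 of the 6 genes were lower in the 12 h controls than in the 4 h controls, 0 were higher and 2 passed in neither direction. Of all genes, 28.4% were called higher and 16.6% lower in this comparison. Vegfa was 1.99-fold lower on 1373807_at (-0.98 ± 0.13, limma adjusted p = 1e-04), and 6.10-fold lower on 1370081_a_at. Flt1 was 3.24-fold lower on its leading probe set (-1.64 ± 0.39, limma adjusted p = 0.00443), and 7.35-fold lower without control replicate 2 at 12 h. Its probe sets 1370492_a_at (-2.03 ± 0.59, limma adjusted p = 0.0135) and 1369087_at (-1.67 ± 0.59, limma adjusted p = 0.0335) were lower as well, calls that were lost in 2 and 6 of 19 alternatives. The 12 h control means of all Flt1 probe sets lay below the filter's limit. With these means set at that limit, the folds were 1.07 on the leading probe set, 1.13 on 1370492_a_at and 1.31 on 1369087_at, so their sizes are poorly known. Nrp2 differed by -0.75 ± 0.19 (limma adjusted p = 0.00676) and Angpt2 by -0.62 ± 0.23 (limma adjusted p = 0.0386). The call of Angpt2 was lost in 11 of 20 alternatives, where the adjusted p reached 0.121. Vegfc and Nrp1 did not pass. All 3 control arrays at 12 h had the high actin ratio, so time, experiment and RNA quality cannot be told apart here.

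Genes of the vessel wall and markers of other cell types were measured beside these values. For the counts of each list here, 12.8% of all tested genes were called higher and 19.6% lower at 4 h. At 12 h the shares were 16.5% and 24.2%. Of 11 endothelial markers on the array, 4 were tested, and Tek was the one that passed, falling at each time. The other tested ones were Erg (102.7 to 1170.8 over the 12 arrays), Egfl7 (134.3 to 615.0) and Esam (50.7 to 405.7). They had means above the limit and passed at neither time. Pecam1 (19.9 to 253.9), Vwf (18.0 to 209.2), Cldn5 (12.4 to 216.5) and Emcn (30.5 to 200.9) had means over the 12 arrays below the limit for testing. The summed signal of the endothelial list was 4148.1 to 5258.9 on the controls and 2609.3 to 3763.6 with EGF at 4 h, and 3493.9 to 4087.9 and 1932 to 3121.9 at 12 h. Tek was the largest part of this sum in every group, so the sum carries the fall of Tek. Its mean was 2352.4 on the controls and 1166.7 with EGF at 4 h, and 2326.2 and 1013.2 at 12 h. The summed signal of the pericyte and smooth muscle list was 18353.1 to 28163.2 on the controls and 14564.9 to 20603.1 with EGF at 4 h, and 3429.8 to 4768.6 and 2883 to 4983.6 at 12 h. Its smooth muscle actin gene Acta2, with a mean of 17325.5 on the 4 h controls and 950.4 on the 12 h controls, made up most of the 4 h sum. In that list 0 of 5 tested genes passed at 4 h, and Cspg4 rose (2.01) and Pdgfrb fell (-1.11) at 12 h, with limma adjusted p of 0.00152 and 0.0113. Of the 7 astrocyte markers tested, the filament gene Nes rose at 4 h and at 12 h (2.37 and 2.36, limma adjusted p = 4.53e-05 and 3.21e-05). The aldolase gene Aldoc (-5.64) and the glutamine synthetase gene Glul (-1.28) fell at 12 h, with limma adjusted p of 1.81e-05 and 2.83e-05. Of the fibroblast markers, all 7 were tested: Dcn and Pdgfra fell at 4 h, and Col1a2, Col3a1, Dcn, Lum and Pdgfra fell at 12 h, Dcn by 3.03 on the log2 scale (limma adjusted p = 1.9e-08). Of the 3 oligodendrocyte markers tested, Mbp and Cnp fell at each time, and of the 3 microglial ones Cd68 rose at 12 h (3.70, limma adjusted p = 2.43e-04). Aldoc and Cd68 passed the filter only through the group where each was high. For Aldoc that was the 12 h controls, with a mean of 2655.4 against at most 160.5 in the other groups. For Cd68 it was EGF at 12 h, with 924.1 against at most 72.4. The markers named here were picked after their values were seen. The part of these cell types in the changes above was not tested. In RNA from a whole culture, fewer cells of a type and less RNA per cell cannot be told apart.

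Class 3 semaphorins, which share the neuropilins with the VEGFs, and the plexins that signal with them were tested as a list that also held Gipc1. Of 11 tested at 4 h, 1 rose, 1 fell and 9 passed in neither direction, with a median log2 fold change of -0.29, where 12.8% of all genes rose and 19.6% fell. At 12 h, 1 of the tested genes rose, which was Gipc1 and neither a semaphorin nor a plexin. In the same list 4 fell and 6 did neither, with a median of -0.72, where 16.5% of all genes rose and 24.2% fell. Sema3e, which signals through Plxnd1, fell by 2.58 ± 0.23 at 12 h (limma adjusted p = 2.2e-06), from a mean signal of 5357.5 to 928.7. Sema3b (-2.81 ± 0.45), Sema3c (-0.72 ± 0.12) and Sema3d (-0.83 ± 0.17) fell at 12 h as well, with limma adjusted p up to 0.00202. Sema3b was dim, with 412.3, 396.0 and 319.9 on the 12 h controls and 7.3, 24.4 and 94.0 with EGF. It passed the filter only through those controls, where it was highest, so its call is weak support and its size is poorly known. Plxna2, a receptor subunit that pairs with neuropilins, rose at 4 h (0.87 ± 0.21, limma adjusted p = 0.0075). Gipc1, which binds the neuropilin tail, rose at 12 h (1.69 ± 0.36, limma adjusted p = 0.00243). Sema3a and Sema3g (35.6 to 302.7 over the 12 arrays) had means below the limit and were not tested. Sema3a was 17.9 to 92.2 on the 12 h controls and 121.9 to 537.6 with EGF, so it lay higher with EGF there, unlike the semaphorins that fell.

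The list of genes that hypoxia is known to induce, to which Vegfa belongs by its regulation, moved in both directions. Of 17 tested, 5 rose and 4 fell at 4 h, and 9 rose and 4 fell at 12 h, with medians of 0.08 and 0.41. Of all genes, 12.8% rose and 19.6% fell at 4 h, and 16.5% rose and 24.2% fell at 12 h. The glucose transporter Slc2a3 (2.16 ± 0.18 at 4 h) and the glycolytic genes Hk2 (3.57 ± 0.50 at 4 h) and Ldha (2.20 ± 0.14 at 12 h) rose, and the vasodilator peptide Adm fell (-1.86 ± 0.19 at 4 h). Of the 6 hypoxia factors and oxygen sensors tested, 1 rose and 1 fell at each time. Epas1, which encodes the factor HIF-2 alpha, rose at 4 h (0.71 ± 0.17, limma adjusted p = 0.00814), whereas Hif1a did not pass (limma adjusted p = 0.0913). The oxygen sensor Egln2 fell at 4 h (-0.56 ± 0.17, limma adjusted p = 0.0253), a call that was lost in 5 of 23 alternatives, where the adjusted p reached 0.117. At 12 h the sensor Egln1 rose (1.08 ± 0.22, limma adjusted p = 0.00158) and Vhl, which marks the hypoxia factors for degradation, fell (-0.71 ± 0.16, limma adjusted p = 0.00436).

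Secreted factors and inhibitors outside the VEGF family changed in part. Among 12 other angiogenic factors, 3 rose and 3 fell at 4 h, and 3 rose and 2 fell at 12 h. Among all genes the shares were 12.8% and 19.6% at 4 h and 16.5% and 24.2% at 12 h. The growth factor Fgf2 rose at both times (2.54 ± 0.22 and 2.40 ± 0.22), as did the EGF receptor ligand Hbegf (2.88 ± 0.55 and 3.26 ± 0.55). The peptide Apln, which acts on endothelial cells, fell at both times (-1.70 ± 0.27 and -3.35 ± 0.27), and the vasoconstrictor precursor Edn1 fell at 4 h (-1.81 ± 0.24). Of 8 extracellular inhibitors, 0 passed in either direction at 4 h, and 1 rose and 1 fell at 12 h. Timp3, a protease inhibitor that also blocks binding of Vegfa to Kdr, fell from 21327.4 to 5322.9 at 12 h (-2.01 ± 0.13, limma adjusted p = 1.03e-07). Of 3 angiopoietin-like genes tested, 0 passed at 4 h and 1 at 12 h: Angptl4, which inhibits lipoprotein lipase, fell from 2087.8 to 176.3 (-3.49 ± 0.29, limma adjusted p = 9.5e-07).

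**Figure D4:**
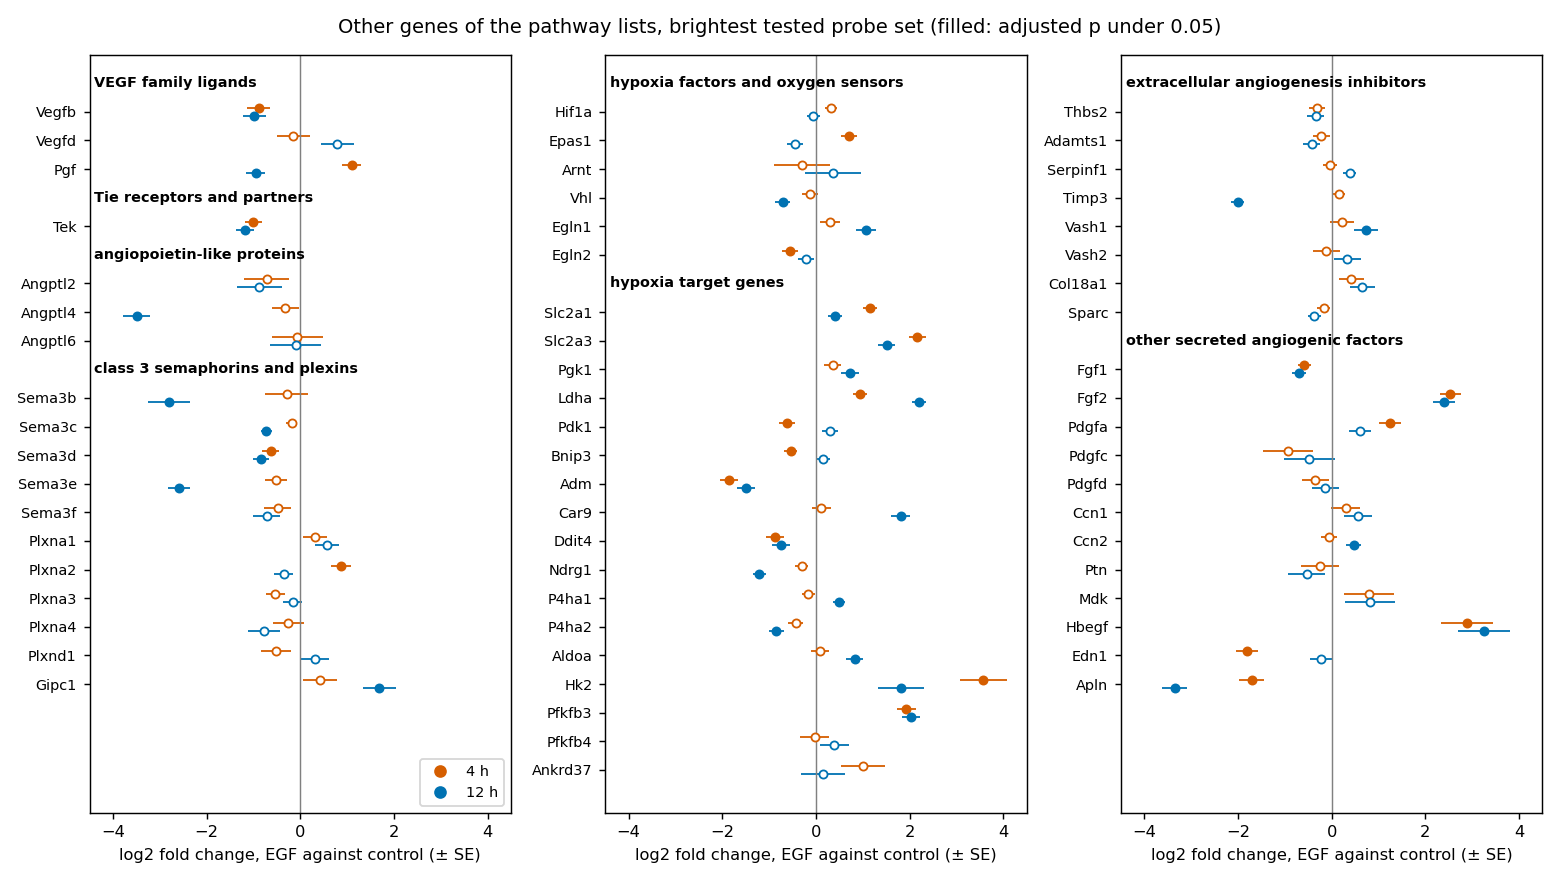
Log2 fold change of EGF over control with its SE for tested genes of the pathway lists, at 4 h (orange) and at 12 h (blue), filled where the adjusted p was under 0.05. Pgf lies at 1.10 at 4 h and -0.95 at 12 h, Tek lies at -1.0 and -1.18, and Angptl4 and Apln lie furthest below 0 at 12 h.

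For each tested gene, the genes whose log2 signals ran most alike over the 12 arrays were looked up as a description. All points share the same arrays, sets and groups. Angpt2 ran most like Gpc6 (Pearson r = 0.994), Tm4sf1 (0.993) and Dkk3 (0.99), whose log2 fold changes with EGF at 12 h were -2.40, -1.63 and -1.56. Flt1 ran most like Il1rl1 (0.975), Mast4 (0.969) and Tnfaip2 (0.969). Nrp2 ran most like Agtr1a (0.979), Plcb4 (0.977) and Adamts15 (0.977), and Vegfc most like Sfxn1 (0.962), Npw (0.948) and Adamts8 (0.945). Vegfa ran most like Smad7 (0.988), Mmp2 (0.979) and Gcnt2 (0.979), which like Vegfa had lower mean signals in the 12 h controls than in the 4 h controls. Nrp1 had the lowest values, with Ssu72 at 0.924, C1qtnf4 at 0.918 and Cog7 at 0.917.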

How the data were processed

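Total RNA was measured on 12 Affymetrix arrays, and groups and replicate numbers were taken from the sample titles, since every sample description reads as control. The deposited table gives a linear intensity per probe set that the authors computed with MAS5, per the submitters' processing notes; its version is not given in the sources used here. All 12 sample columns were used. The trimmed mean was close to the same value on all arrays, so no further scaling was applied.

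The 57 control probe sets and 12417 dim ones, with a mean signal below the 40th percentile (215), were left out, and 18625 were tested. The deposited intensities were moved to the log2 scale after adding 24.4, their 10th percentile. One mean per group was fitted over all arrays with limma 3.58.1 in R 4.3.3, moderated by eBayes with a trend on intensity and with 8 residual degrees of freedom. Contrasts compared EGF with control at each time, the difference of these effects, and 12 h against 4 h controls. Tests were two-sided and adjusted by Benjamini-Hochberg. The code was tested on simulated data. Precision is limited by the number of arrays: the median SE was 0.23 for EGF against control.

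The platform annotation gave 1 symbol to 20826 probe sets, several to 436 and none to 9837. The text names all 7 genes with every probe set, the other VEGF and Tie genes, up to 4 genes with the smallest p at each time from each pathway list, and the 3 genes most like each tested gene by Pearson r. From the pathway lists, Hk2 and Gipc1 were named outside that rule, and no alternatives are given for them. The genes, lists and limits were chosen with earlier results of these data known.

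Array sets were defined by time, a mean hybridisation control above 1000 and an actin ratio above 5. Pairing by replicate was checked with Pearson r on signals from which group means had been taken away. For replicate 3 at 4 h, the EGF and control arrays gave 0.376, against at most -0.203 for arrays of unlike number. Replicates 1 and 2 at 4 h gave 0.121 and 0.15, against up to 0.142 and 0.138. Only replicate 3 therefore stood out as a pair at 4 h. Replicates 1, 2 and 3 at 12 h gave 0.0826, -0.111 and -0.103, against up to 0.0334, 0.116 and 0.166, which does not pair them. Alternatives covered the offset, the filter, the scaling, the trend, the replicate and set blocks, the arrays in the fit, the choice of probe set and leaving out each array. Figures were drawn with matplotlib 3.10.9.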

Additional observations from a re-analysis of the deposited data

Results flagged for a closer look

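The effect of EGF differed between 4 h and 12 h by limma's test of the difference for 3 genes on 4 probe sets. For Angpt2 the effect at 12 h minus that at 4 h was -3.61 on the log2 scale. For Nrp1 it was 1.54 on probe set 1373577_at and 1.38 on 1370570_at, with a change of sign between the times on both. For Vegfc it was 0.82, close to the threshold. These differences set 12 h against 4 h, where time, experiment and RNA quality cannot be told apart.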

How the results depend on the processing

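Across 25 alternatives, 40 results on the 10 tested probe sets gave 872 values, of which 828 kept their side of the threshold, 36 kept the direction and lost the call, 8 kept it and gained a call and 0 called values changed sign. Of the 828, 16 had the other sign, all of them of Vegfa or of Flt1 probe set 1369087_at, in comparisons that passed in no setting. Leaving out each array in turn, 4 to 4 of the 6 genes were called at 4 h, 5 to 5 at 12 h, 2 to 3 for the difference of effects and 3 to 4 between the controls. Over all probe sets, the same fits called 3864 to 6878 (5186 with all arrays) at 4 h, 5333 to 7246 (6730) at 12 h, 1419 to 2955 (2153) for the difference and 6694 to 9869 (8458) between the controls. The difference count was lowest without control replicate 2 at 4 h (1419) and without control replicate 1 at 12 h (1423). With the array set as a block, 8063 probe sets were called at 4 h (3103 higher, 4960 lower) and 4092 for the difference (2168 higher, 1924 lower). The replicate block, which pairs the arrays and leaves 4 residual degrees of freedom, called 4, 5 and 3 of the 6 genes and 5220, 6850 and 2044 probe sets at 4 h, at 12 h and for the difference, and changed no call of the 10 probe sets. The causes were not tested.

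Centring each array on its median moved the median of all tested probe sets from -0.15 to -0.04 at 4 h and from -0.06 to 0.04 at 12 h, and higher calls went from 40.8% to 53.1% of all calls and from 42.3% to 52.6%. The calls of the 6 genes at 4 h and 12 h were the same under it. With the next brightest probe set in place of the brightest, 4 genes were called at 12 h. No blocked value was made for the controls of 12 h against 4 h, and fits to the arrays of a single time give only their own comparison. Dim signals limit Angpt1, the 12 h Flt1 values and the EGF values of Angpt2 at 12 h.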
